A study of Gallus gallus with 27 samples.

Results

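The genes described here are 10 chicken genes of macrophages and of antigen presentation by major histocompatibility complex (MHC) class II: C1QA, C1QB, C1QC, CSF1R, SPI1, PTPRC, MARCO, BLB1, BLB2 and CD74. They were chosen by symbol, and all 10 had a row among the 14161 rows of the deposited table of gene symbols. RNA-seq libraries were available for 27 samples in 9 groups of 3. CEF2 (Broiler Ross 308) and CEF4 (Israeli Baladi) were primary embryonic fibroblast cultures. CF2 (Broiler Ross 308) and CF4 (Israeli Baladi) were immortalized fibroblast lines grown attached, and SCF2 and SCF4 were lines that had immortalized spontaneously and grew without anchorage. The SCF labels give opposite breeds in different fields, so these lines are named by number. DF1 is an immortal fibroblast line from East Lansing Line 0 chickens, and SDF1 grew without anchorage and came from the same chicken line. FAT was labelled Fat, from Israeli Baladi. The treatment text given with the FAT, CF, DF1 and SDF1 samples describes a transdifferentiation medium. The labels do not say whether FAT was tissue or cells turned into fat cells in culture. Cells counted as immortal after at least 120 population doublings, and replicates of a line share its origin.

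Macrophages depend on signals through CSF1R, the receptor for CSF1 and IL34, and on SPI1 (PU.1), a transcription factor that directs myeloid development. They make the C1q chains, which start the classical complement pathway, and carry scavenger receptors such as MARCO on their surface. Class II molecules present peptides to T cells on professional antigen-presenting cells: BLB1 and BLB2 encode chicken class II beta chains, BLA the alpha chain, and CD74 the invariant chain that guides class II molecules through the cell. Fat tissue of vertebrates is known to hold resident macrophages.

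Values are normalized reads, that is reads divided by 1 factor per library. The cultured libraries held 12.3 to 28.7 M reads and the FAT libraries 4.61 to 10.4 M, so that 1 read equals 0.294 to 0.725 normalized reads in the cultures and 1.52 to 3.16 in FAT. The adipocyte genes ADIPOQ, PLIN1 and FABP4 were higher in every FAT library than in any culture, and ADIPOQ stood at 1777, 3957 and 1644 normalized reads in FAT and at 32.2 or less in every culture. Replicates correlated least in FAT (r from 0.833 to 0.943 over 11614 genes) and in DF1, where replicate 3 had r of 0.858 and 0.851 with the others while those correlated at 0.994. The labels split the libraries into a set of 12 (CEF and SCF) and a set of 15 (all others), so in CF against CEF and in FAT against CEF4 the set and the group cannot be told apart. In such bulk RNA, fewer cells of a type and less RNA per cell cannot be told apart either.

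In normalized reads all 10 genes were highest in FAT, and for each of them the lowest FAT library exceeded the highest of the 24 cultured libraries. The same held for 19.2% of the 14103 genes with a read, so this separation alone was common in these data. The size of the gap differed widely between members. The lowest FAT library exceeded the highest cultured library 388-fold for BLB1 and 226-fold for BLB2, 128-fold to 162-fold for the C1Q chains, 54.8-fold for CSF1R, 35.6-fold for CD74, 32.3-fold for SPI1, 4.24-fold for MARCO and 1.24-fold for PTPRC. PTPRC and MARCO had the narrowest gaps.

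**Figure D1:**
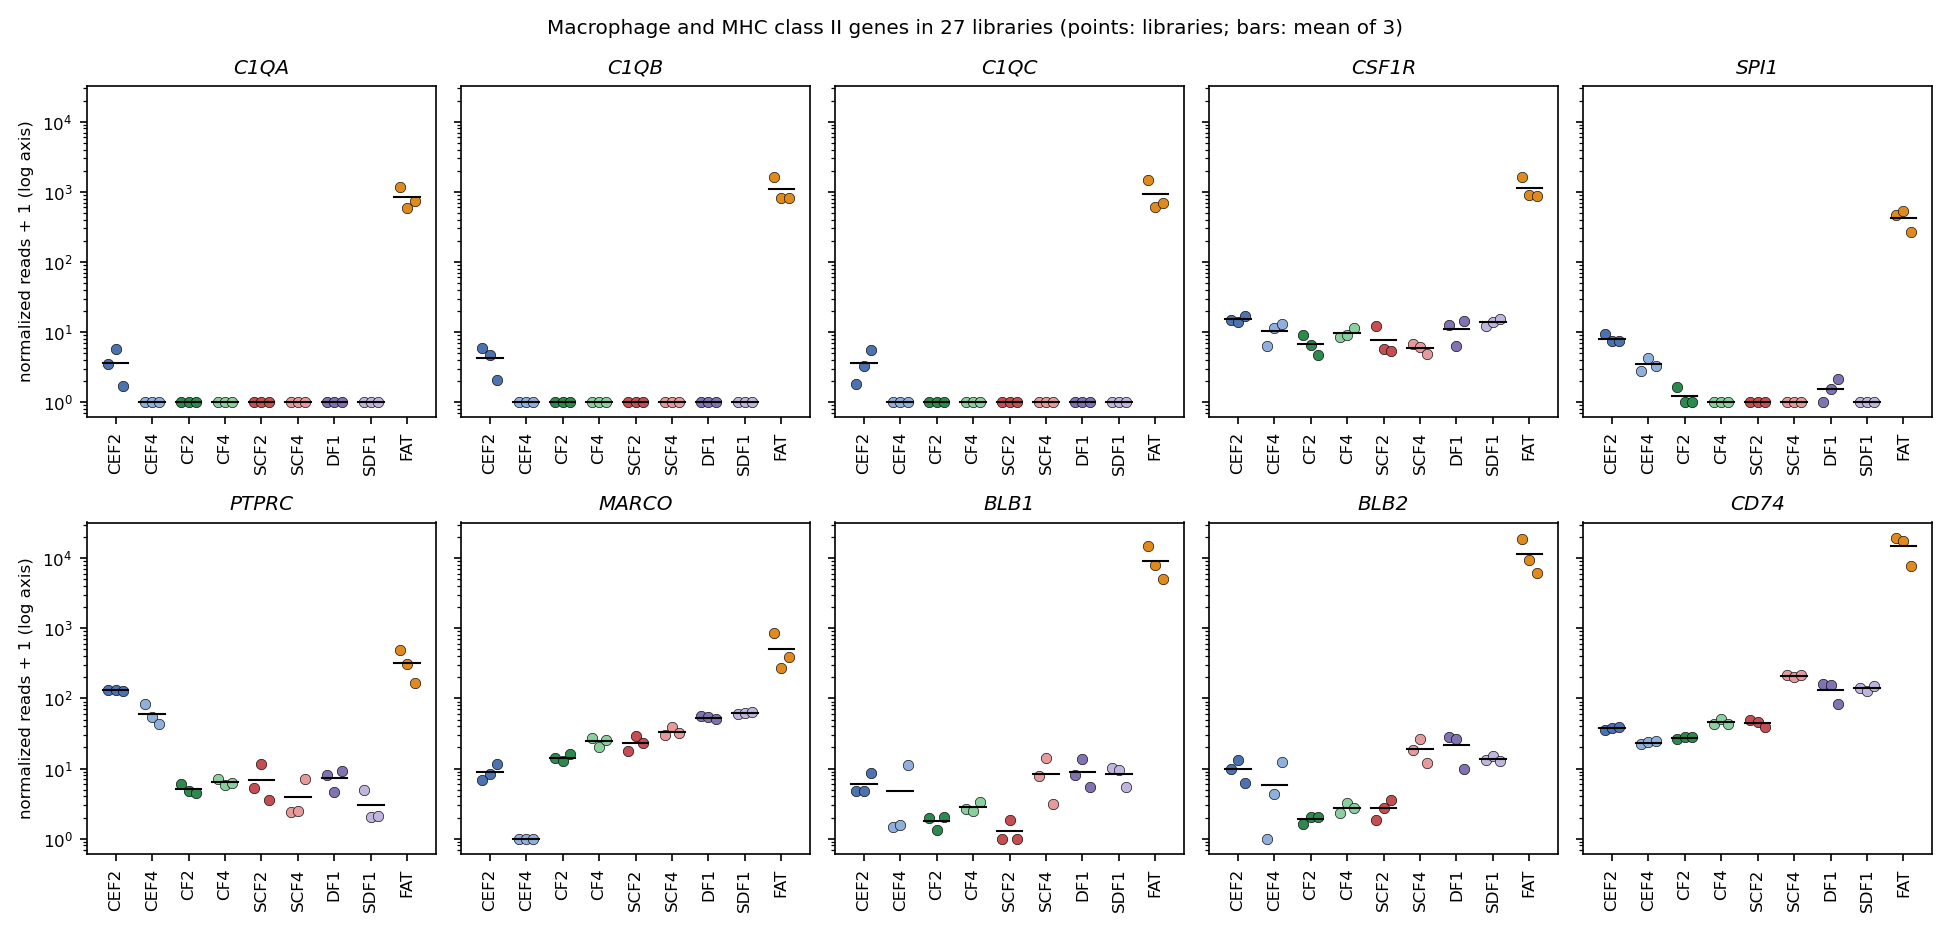
Normalized reads plus 1 (log axis) of the 10 genes in each of the 27 libraries, by group; points are libraries and bars the mean of 3. FAT lies above every culture in each panel, C1Q reads outside FAT appear in CEF2 alone, and PTPRC and MARCO show graded levels across the cultures.

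C1QA stood at 1173, 595 and 736 normalized reads in the 3 FAT libraries, C1QB at 1628, 810 and 811, and C1QC at 1461, 607 and 698. In the cultures the C1q chains were found in CEF2 alone, where C1QA had 18 reads, C1QB 23 and C1QC 20 over the 3 libraries. The other 21 cultured libraries held no read of any C1q chain. Against CF4, the attached line of the same labelled breed and set, FAT was at least 2542-fold higher for C1QA, at least 3298-fold for C1QB and at least 2807-fold for C1QC, with a floor of 3 reads over the CF4 group. Against CEF2 the ratios of means were 318-fold, 332-fold and 357-fold. Within FAT the chains kept similar proportions, with 1.10 to 1.39 reads of C1QB and 0.948 to 1.25 reads of C1QC per read of C1QA. The RefSeq gene table places C1QB, C1QC and C1QA next to each other on chromosome 21.

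Other complement genes did not share this pattern as a group. Of 14 complement genes tested in FAT against CF4, 7 were called higher and 4 lower, beside 42.7% and 25.8% of all genes. Their median log2 difference was 0.58, beside 0.40 over all genes. A gene was called at a Benjamini-Hochberg adjusted p under 0.05 in limma on log2(normalized reads + 1). C1S, the C1 protease subunit, was higher by 2.82 (SE 0.23, adjusted p = 8.5e-05), and C1R by 1.44 (SE 0.32, adjusted p = 0.0065), a call lost in CPM. C1QBP, a mitochondrial protein named for binding C1q, was lower, with a log2 difference of -0.89 (SE 0.22, adjusted p = 0.011). Under quantile normalization the complement counts became 7 higher and 6 lower, where 66.7% of all genes were called, 43.0% of them higher. In CPM (counts scaled to equal library totals) the median turned to -0.30, beside -0.45 over all genes.

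CSF1R, the macrophage growth factor receptor, stood at 1647, 906 and 868 normalized reads in FAT. All cultures held low levels, from 3.75 to 15.8, and the ranges of neighbouring groups in the order of means overlapped throughout. The log2 difference between FAT and CF4 was 6.84 (SE 0.30, adjusted p = 8.2e-06), a 133-fold ratio of means. Of its ligands, IL34 stood at 4246, 2639 and 3330 in FAT against 35.9 or less in the cultures, and was called higher than in CF4 by 11.43 (SE 0.27, adjusted p = 2.9e-06). CSF1 stood at 677, 804 and 330 in FAT and between 117 and 693 in the cultures, and the FAT to CF4 difference of 0.46 (SE 0.33, adjusted p = 0.26) was not called. CSF1 was thus present in all groups, while IL34 was high in FAT.

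SPI1, the myeloid transcription factor, stood at 471, 534 and 269 normalized reads in FAT. Among the cultures it was measurable in the primary cells, at 8.34, 6.53 and 6.33 in CEF2 and 1.80, 3.32 and 2.25 in CEF4. CF4, SCF2, SCF4 and SDF1 held no read of SPI1, CF2 held 2 reads and DF1 held 3. FAT was 60.1-fold above CEF2, 173-fold above CEF4 and at least 1294-fold above CF4.

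PTPRC (CD45), a tyrosine phosphatase on the surface of leukocytes, stood at 484, 311 and 163 normalized reads in FAT. Its levels in CEF2 were 131, 131 and 126, close below the lowest FAT library, and those in CEF4 were 83.1, 53.1 and 42.8. In the 18 libraries of the lines it ranged from 1.07 to 10.5. FAT exceeded CF4 by a log2 difference of 5.51 (SE 0.42, adjusted p = 6.5e-05) and CEF4 by 2.32 (SE 0.44, adjusted p = 0.0026). PTPRC therefore separated FAT less from the primary cultures than from the lines, in ratios of means of 2.47 for CEF2, 5.35 for CEF4 and 50.4 to 155 for the lines.

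MARCO, a scavenger receptor that binds bacteria and particles, stood at 866, 270 and 389 normalized reads in FAT. FAT was 8.35-fold above SDF1, the culture with the highest mean, and at least 974-fold above CEF4, which held no MARCO read. The log2 difference to CF4 was 4.22 (SE 0.43, adjusted p = 0.00022). The RefSeq gene table gives COL22A1 as a synonym of MARCO while the deposited table has a separate COL22A1 row, and the labels do not say which transcripts entered the MARCO row.

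The class II genes were also far above the cultures in FAT. CD74 stood at 19660, 17420 and 7690 normalized reads in FAT, BLB1 at 14772, 7861 and 5058, and BLB2 at 18645, 9539 and 6097. CF4 held 42.8, 49.5 and 41.8 of CD74, 1.61, 1.48 and 2.35 of BLB1, and 1.29, 2.21 and 1.77 of BLB2. The log2 differences between FAT and CF4 were 8.24 for CD74 (SE 0.36, adjusted p = 7.9e-06), 11.55 for BLB1 (SE 0.40, adjusted p = 4.7e-06) and 11.88 for BLB2 (SE 0.41, adjusted p = 4.8e-06). In FAT against CEF4 they were 9.20, 11.48 and 11.42. BLB1 and BLB2 are closely related genes, on either side of TAPBP in the RefSeq gene table, and how reads were divided between them by the counting is uncertain.

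In FAT against CF4 every member was called higher, where 68.5% of 12717 genes were called, 42.7% higher and 25.8% lower. C1QA, C1QB, C1QC and SPI1 passed the filter on low values only through FAT and so had to differ. In FAT against CEF4 all 10 were called higher too, where 57.9% of genes were called, 33.6% higher and 24.3% lower, and the C1q chains and MARCO passed only through FAT. BLB1 and BLB2 reached 1 in fewer than 3 CEF4 libraries, so they too needed the FAT libraries to pass there. The members that would have passed without FAT kept their calls under every scaling, filter and left-out library tried. The split over all genes moved more: 62.3% of the called genes were higher in FAT than in CF4 in the deposited scaling, 43.0% after quantile normalization and 39.9% in CPM. For FAT against CEF4 these shares were 58.0%, 44.9% and 46.6%. The median log2 difference of all genes between FAT and CF4 was 0.40, -0.22 and -0.45 in the same 3 scalings, which is small beside the members' differences.

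**Figure D2:**
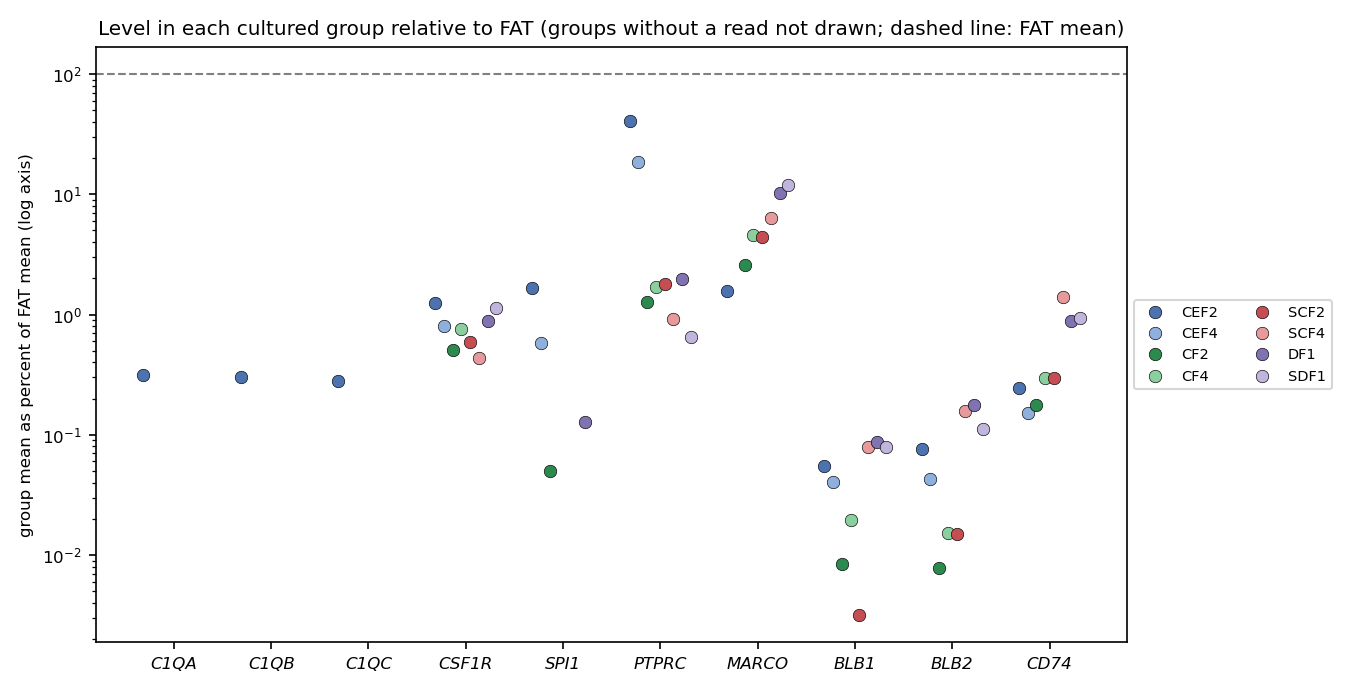
Mean level of each cultured group as a percent of the FAT mean (log axis) for the 10 genes; the dashed line is the FAT mean, and groups without a read are not drawn. PTPRC in CEF2 reaches 40.5% and MARCO in SDF1 12.0%, while BLB1 and BLB2 reach at most 0.0870% and 0.178%.

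Other class II pathway genes were measured beside the members. Of 15 tested in FAT against CF4, 8 were called higher and 2 lower, beside 42.7% and 25.8% of all genes. Their median log2 difference was 1.20, beside 0.40 over all genes. CTSS, a protease that trims the invariant chain, stood at 2536, 1634 and 1309 in FAT and at 158 or less in the cultures. IFI30, a lysosomal thiol reductase, stood at 3725, 2023 and 1851, and BLA at 155, 171 and 70.0. DMB2, a chain of the peptide-loading class II-like DM molecule, stood at 354, 374 and 169, of which 169 lay below the SDF1 values of 274 to 284. DMA, its partner chain, stood at 34.8, 37.7 and 12.2 in FAT, within the range of the cultures, and was not called.

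CIITA, the coactivator known as the main switch of class II genes, had few reads anywhere. FAT held 0, 17.4 and 1.52 normalized reads of CIITA, and no cultured library exceeded 4.99. Its difference between FAT and CF4 was -0.01 (SE 1.04, adjusted p = 0.99) and that of DMB1 -0.70 (SE 1.25, adjusted p = 0.64). Under quantile normalization DMA (-1.36), DMB1 (-2.79) and CIITA (-2.33) were called lower in FAT. Most class I genes, which present peptides from inside the cell, were also higher in FAT than in CF4. Of 9 tested, 7 were called higher and 2 lower, beside 42.7% and 25.8% of all genes. B2M, the class I light chain, stood at 31548, 25429 and 18939 in FAT, and BF2, a class I heavy chain, at 27264, 19728 and 14673.

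The FAT libraries differed among themselves. Of the 10 genes, 9 were highest in replicate 1, the exception being SPI1, which was highest in replicate 2. Replicate 3 was lowest for 6 genes and replicate 2 for C1QA, C1QB, C1QC and MARCO. The ratio of the highest to the lowest FAT library ran from 1.90 for CSF1R to 3.21 for MARCO. The members took 0.394% of reads in replicate 1 (Wilson 95% interval 0.388% to 0.400%), 0.290% in replicate 2 (0.285% to 0.295%) and 0.144% in replicate 3 (0.141% to 0.146%). These intervals cover counting error only, and the shares lay outside each other's intervals. In the cultures the members took 0.000540% to 0.00317% of reads.

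Lists for other cells moved in the same libraries. The summed level of the adipocyte list was 358802, 183136 and 88895 normalized reads in FAT replicates 1, 2 and 3, that of the endothelial list 31545, 42131 and 10561, that of the red blood cell list 5198, 3965 and 1325, and that of the T and NK cell list 999, 877 and 497. The fibroblast list summed to 402919, 400272 and 249567. Each of these lists was lowest in replicate 3, as was the sum over the 10 genes, which was 60807, 38851 and 22779. The part of cell composition in the spread of the members was not tested.

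**Figure D3:**
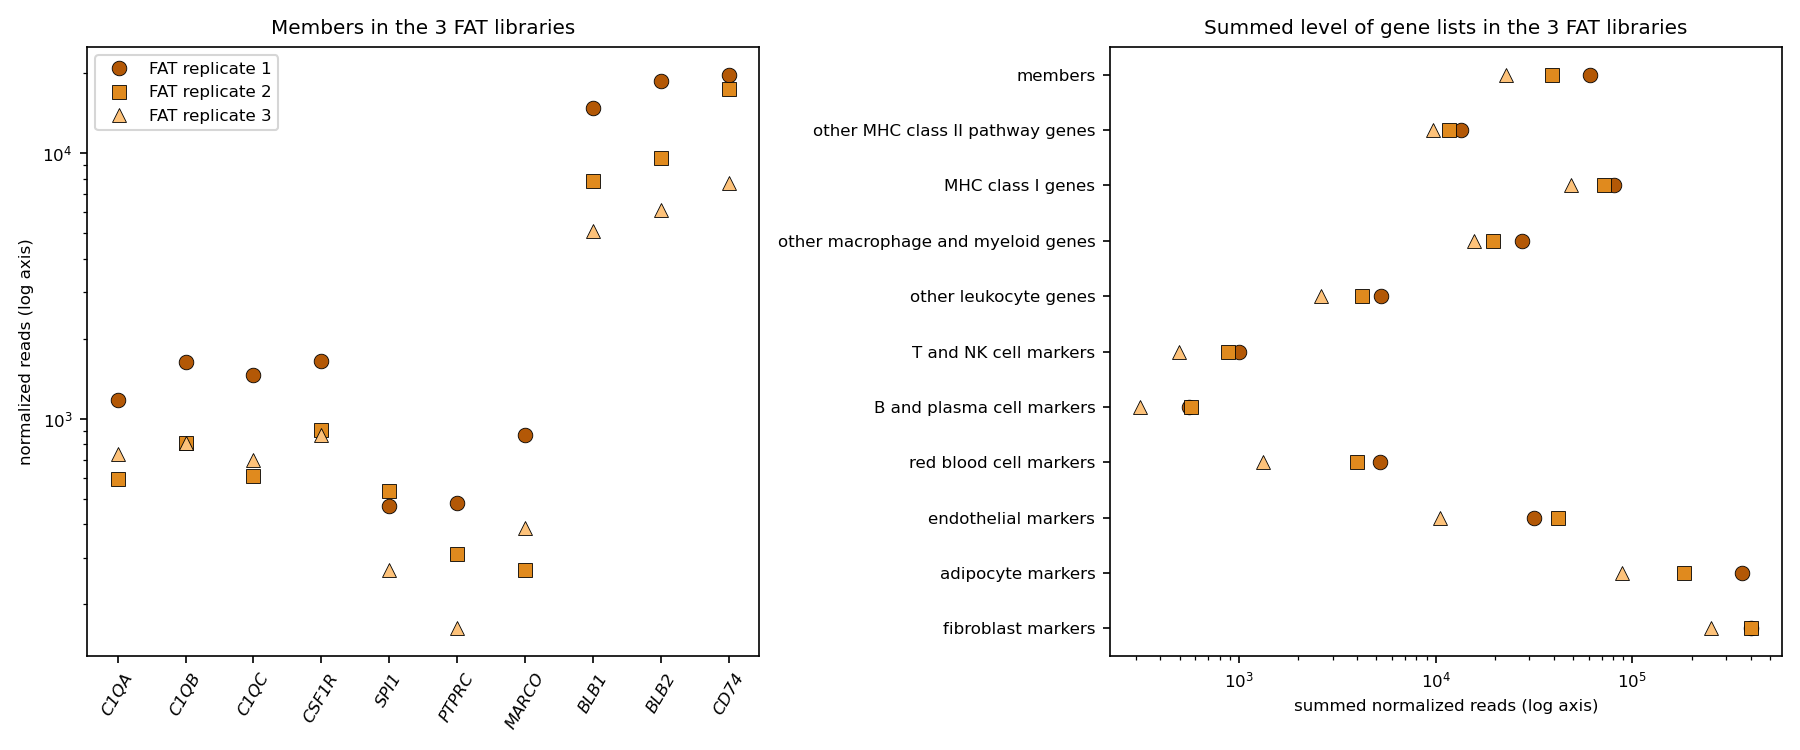
Left, normalized reads (log axis) of the 10 genes in each FAT library; right, summed normalized reads (log axis) of the gene lists in the same libraries. Replicate 3 holds the lowest sum for each list drawn, and 9 of the 10 genes are highest in replicate 1.

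Lists of other cells were compared between FAT and CF4, where 42.7% of all genes were called higher and 25.8% lower. Against CF4, 16 of 19 other leukocyte genes were called higher and 1 lower, with a median log2 difference of 5.64 (5.66 with genes at 0 in CF4 set at their bound), beside 0.40 over all genes. Of 34 other macrophage and myeloid genes, 22 were called higher and 2 lower, with a median of 3.67 (3.96 with bounds). In these lists, 2 of the 19 and 7 of the 34 genes had no read in CF4. Those genes passed the filter only through FAT and so had to differ. TLR4, which senses bacterial lipopolysaccharide, stood at 323, 215 and 146 in FAT and at 4.22 or less in the cultures. MRC1, the mannose receptor, ranged from 44.1 to 325 in FAT and CYBB, a subunit of the phagocyte oxidase, from 13.7 to 31.6. LCP1, a leukocyte actin-bundling protein, ranged from 374 to 664 in FAT and had at most 13.4 in a cultured library.

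Counts for lymphocyte, red cell and endothelial genes are read beside the same 42.7% and 25.8%. Of 13 T and NK cell genes, 11 were called higher and none lower in FAT than in CF4. Of these 13 genes, 5 had no read in CF4, passed the filter only through FAT and so had to differ. CD3E, a T cell receptor chain, was not called, with 130, 75.5 and 33.5 in FAT, and stood at up to 135 in SDF1. Of 14 endothelial genes, 12 were called higher and 2 lower, and 2 of the 14 had no read in CF4 and passed only through FAT. CDH5, called higher, stood at 1960, 3803 and 1226 in FAT, but its lowest FAT library did not exceed every cultured library. Of 14 adipocyte genes 11 were called higher and 1 lower, of 15 fibroblast genes 11 and 2, of 5 red blood cell genes 4 and 0, of 4 B and plasma cell genes 4 and 0, and of 6 heterophil and thrombocyte genes 4 and 1. In CF4, 3 of the adipocyte and 3 of the red blood cell genes had no read. The same held for 1 fibroblast gene and 1 B and plasma cell gene. These too passed the filter only through FAT. HBAD, a globin gene of red cells, stood at 790, 427 and 169 in FAT and had no read in any culture. After quantile normalization the T and NK cell count was 7 and the myeloid count 17 higher and 5 lower, and the myeloid median was 1.37. In that scaling 66.7% of all genes were called, 43.0% of them higher, and the median of all genes was -0.22. Against CEF4 the fibroblast genes went the other way, with 3 of 15 called higher in FAT and 9 lower, beside 33.6% and 24.3% of all genes. Their median log2 difference to CEF4 was -1.58, beside 0.22 over all genes. What part the cells of these lists had in the members' levels was not tested.

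By a fixed rule on likeness, the 5 other genes most like the mean of the members over the 27 libraries were TARP (r = 0.988), CCL26 (0.985), RGS1 (0.984), CD48 (0.984) and TPBGL (0.983), among 10984 genes with a FAT mean of 10 or more. All were high in FAT and low in every culture, and the points share libraries and depth. CCL26 stood at 1081, 656 and 386 in FAT and at 4.57 or less in the cultures. CD48 stood at 756, 644 and 316 in FAT and at 4.59 or less. Within the members, each gene's r with the mean of the others was 0.914 to 0.983 except for PTPRC (0.640) and MARCO (0.626).

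PTPRC and SPI1 were higher in the primary cultures than in the lines. PTPRC fell by 4.69 on the log2 scale from CEF2 to CF2 (SE 0.41, adjusted p = 8.4e-09) and by 4.44 to SCF2 (SE 0.41, adjusted p = 1.9e-08). In line 4 it fell by 3.19 from CEF4 to CF4 (SE 0.41, adjusted p = 1.5e-06) and by 4.09 to SCF4 (SE 0.41, adjusted p = 6.3e-08). No library of the lines overlapped the primary libraries for PTPRC. SPI1 fell in the same 4 comparisons, and with no read left in CF4, SCF2 and SCF4 it was at least 7.48-fold, 14.1-fold and 4.92-fold lower than in the matching primary culture. Since SPI1 passed the filter on low values only through CEF2 and CEF4, a fall was the only call it could get there. The SCF and CEF libraries belong to the same set, so the fall of PTPRC was seen within a set as well as across sets.

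Of 8 members tested in CF2 against CEF2, 1 was called higher and 7 lower, where 72.2% of 13123 genes were called, 29.6% higher and 42.6% lower. The 7 were C1QB, BLB1, BLB2, CD74, CSF1R, PTPRC and SPI1. C1QB passed the filter only through CEF2, and SPI1 only through CEF2 and CEF4. The falls of CD74 (-0.46), CSF1R (-1.20), BLB1 (-1.74) and BLB2 (-2.30) turned positive under quantile normalization, which moved the median of all genes from -0.18 to 0.21 and the share of called genes that were higher from 41.0% to 58.7%. In SCF2 against CEF2, 1 of 8 was called higher and 6 lower, where 71.3% of all genes were called, 32.3% higher and 39% lower (45.3% of the called genes were higher, and 59.2% under quantile normalization). In CF4 against CEF4, 2 of 7 were called higher and 2 lower, where 70.2% of all genes were called, 31.2% higher and 39% lower (44.4% of the called genes were higher, 57.4% under quantile normalization and 65.7% in CPM). In SCF4 against CEF4, 3 of 7 were called higher and 2 lower, where 68.8% of all genes were called, 32.7% higher and 36.1% lower (47.5%, 57.4% and 65.6% in the same scalings). C1QB passed only through CEF2 in SCF2 against CEF2 too, and SPI1 only through the primary cultures in each of these comparisons. The counts of members called are therefore given without reading them against the background. In CF2 against CEF2 the CD74 call was also lost in CPM and with all 9 groups in the fit. The BLB1 call was lost there without CF2 replicate 2 (-1.55) or CEF2 replicate 3 (-1.44). The BLB2 call in SCF2 against CEF2 was lost without CEF2 replicate 2. Without CEF4 replicate 1, BLB2 was called lower in CF4 (-1.42) and CSF1R in SCF4 (-1.05) than in CEF4.

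**Figure D4:**
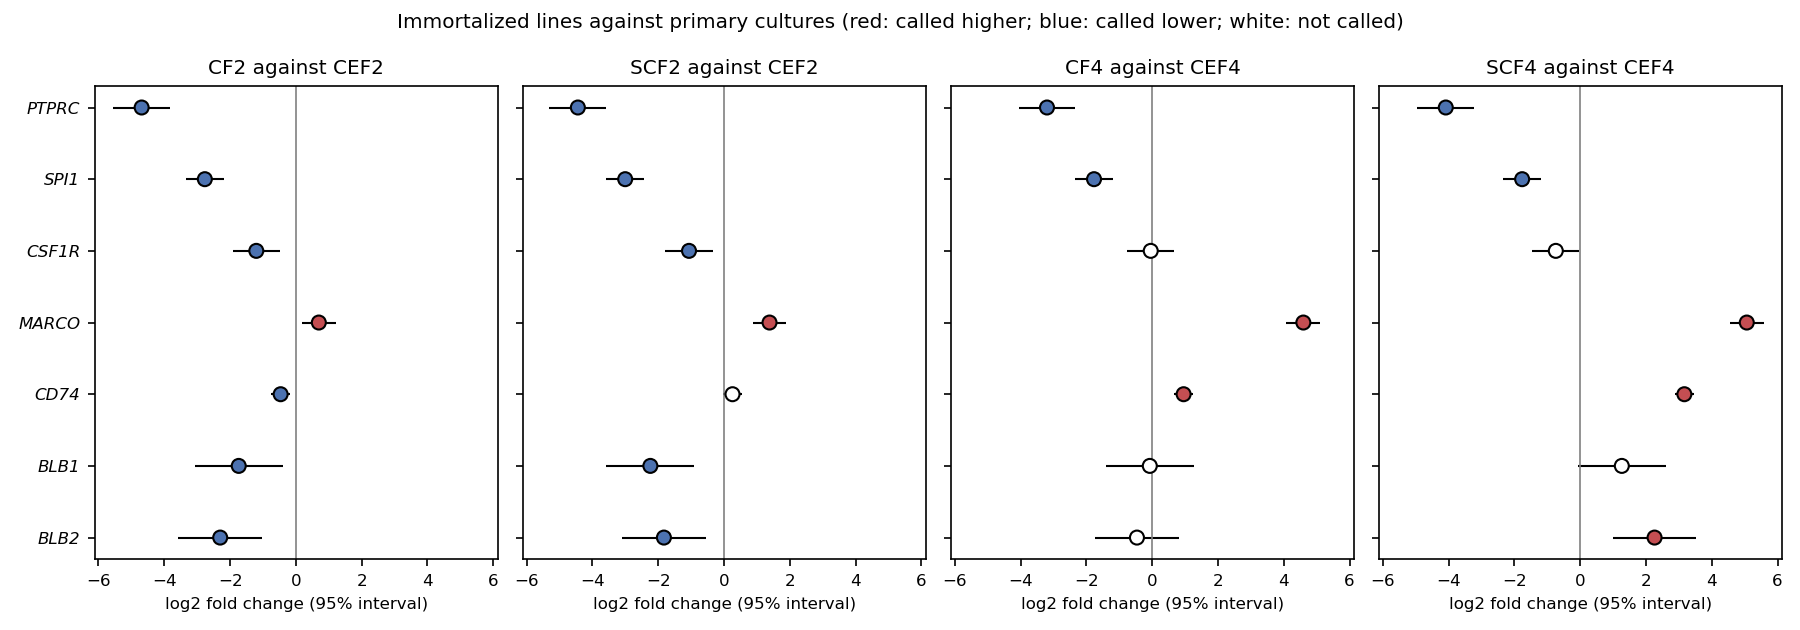
Log2 fold change with its 95% interval (limma, n = 3 per group) of 7 members in the attached (CF) and suspension (SCF) lines against the primary culture of the same number; red and blue points were called higher and lower, white points were not called. PTPRC and SPI1 are lower and MARCO is higher in all 4 panels, while CD74 is higher by 3.17 in SCF4 and 0.96 in CF4, lower in CF2 and not called in SCF2.

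In the deposited scaling most wider leukocyte genes fell with PTPRC in line 2. Of 19 other leukocyte genes, 1 was called higher and 12 lower in CF2 than in CEF2, beside 29.6% and 42.6% of all genes. Their median log2 difference was -1.98 (-2.43 with bounds), beside -0.18 over all genes. Of the 19 genes, 6 had no read in CF2 and so could only fall. Under quantile normalization 4 were higher and 7 lower, where 73.2% of all genes were called, 58.7% of them higher. In CF4 against CEF4, 3 were higher and 9 lower, beside 31.2% and 39% of all genes. Under quantile normalization 6 were higher and 6 lower there, where 70.7% of all genes were called, 57.4% of them higher. LAPTM5, a lysosomal protein of blood cells, went the other way in line 4, with a rise of 2.38 in CF4 (SE 0.25, adjusted p = 1.1e-07). The direction for the macrophage and myeloid list in CF2 against CEF2 depended on the scaling, with 4 higher and 13 lower of 27 as deposited and 14 higher and 7 lower under quantile normalization.

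Between the primary cultures, CEF2 held more PTPRC, SPI1, CD74 and MARCO than CEF4. In CEF4 against CEF2, 5 of 8 members were called lower and none higher, where 46.3% of genes were called, 20.5% higher and 25.7% lower (44.4% of the called genes were higher, and 26.5% in CPM). C1QB, one of the 5, passed the filter only through CEF2. By limma none of the other 3 (BLB1, BLB2, CSF1R) was called, with BLB2 at an unadjusted p of 0.044. Without CEF4 replicate 3, BLB1 (-1.95) and BLB2 (-2.16) were called lower, and BLB2 also in CPM (-1.38). The log2 difference was -1.15 for PTPRC (SE 0.41, adjusted p = 0.028), -1.24 for SPI1 (SE 0.27, adjusted p = 0.0010) and -0.68 for CD74 (SE 0.14, adjusted p = 0.00054). MARCO was at least 15.2-fold lower, with 60 reads in CEF2 and 0 in CEF4. CD4, the T helper cell and macrophage co-receptor, stood at 13.8, 10.7 and 27.1 in CEF2, while CEF4 held none. Other T cell genes went the other way, as CD8A and CD28 had reads in CEF4 and none in CEF2. Of 9 T and NK cell genes tested, 1 was called higher and 3 lower in CEF4, beside 20.5% and 25.7% of all genes. Their median log2 difference was -0.15, beside -0.03 over all genes. The PTPRC call was lost without any 1 of the CEF2 libraries and without CEF4 replicate 2 or 3, with differences from -0.95 to -1.17. It was also lost with a pseudocount of 0.1 and with all 9 groups in the fit. The SPI1 call was lost with that pseudocount, under quantile normalization and in edgeR, and the CD74 call under quantile normalization (-0.16) and with all 9 groups in the fit.

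MARCO was lower in the primary cultures than in the lines, unlike PTPRC and SPI1. It stood at 5.84, 7.46 and 10.6 normalized reads in CEF2, at 13.2 ± 1.64 in CF2 (mean ± SD, n = 3), from 16.7 to 27.9 in SCF2, from 19.6 to 26.4 in CF4, from 28.9 to 37.7 in SCF4, from 49.8 to 54.3 in DF1 and from 59.0 to 63.7 in SDF1. Adjacent groups in the order of means did not overlap, except CF4 with SCF2. The log2 rise from CEF2 was 0.70 in CF2 (SE 0.24, adjusted p = 0.016) and 1.38 in SCF2 (SE 0.24, adjusted p = 6.1e-05). From CEF4, without a read, MARCO was at least 44.8-fold higher in CF4 and at least 62.5-fold higher in SCF4. The CF2 call was lost without CF2 replicate 3 (0.61) or CEF2 replicate 1 (0.52), and with all 9 groups in the fit. None of the lines with MARCO reads held a read of C1QA, C1QB or C1QC.

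CD74 and the class II beta chains were highest among the new lines in SCF4. CD74 stood at 216, 199 and 214 normalized reads in SCF4, against 42.8, 49.5 and 41.8 in CF4, 48.8, 45.8 and 38.1 in SCF2, 26.3 ± 1.13 in CF2 (mean ± SD, n = 3), 34.6 to 38.0 in CEF2 and 21.1 to 23.7 in CEF4. The SCF4 libraries were above all other cultured libraries, DF1 and SDF1 included. BLB2 stood at 17.2, 25.4 and 11.1 in SCF4 and BLB1 at 6.87, 13.05 and 2.14. In CF4, BLB2 had at most 2.21 and BLB1 at most 2.35, so that BLB2 did not overlap between these groups and BLB1 did.

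In SCF4 against CF4, 2 of 6 members tested were called higher and none lower, where 45.7% of 13123 genes were called, 27.3% higher and 18.4% lower (59.7% of the called genes were higher, and 49.3% in CPM). CD74 rose by 2.21 (SE 0.14, adjusted p = 1.9e-09) and BLB2 by 2.72 (SE 0.60, adjusted p = 0.0012). The BLB1 difference of 1.33 (SE 0.63, adjusted p = 0.097) was not called, but was called without SCF4 replicate 3, at 1.92. Against CEF4, CD74 was higher in SCF4 by 3.17 (SE 0.14, adjusted p = 4.0e-13) and BLB2 by 2.26 (SE 0.60, adjusted p = 0.0028). CEF4 replicate 3, with 10.1 of BLB1 and 11.3 of BLB2, stood above its partners at 0.449 and 0.553 of BLB1 and 0 and 3.32 of BLB2, and without it BLB1 was called too, at 2.23. SCF and CF came from different sets, and the CEF4 comparison lies within a set.

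Of 15 other class II pathway genes tested in SCF4 against CF4, 7 were called higher and 2 lower, beside 27.3% and 18.4% of all genes, with a median of 0.41 beside 0.06 over all genes. BLA stood at 21.0, 47.1 and 17.5 in SCF4 and at 2.90, 1.48 and 3.83 in CF4, a rise of 2.91 (SE 0.56, adjusted p = 0.00037). DMB2 rose by 2.10 (SE 0.38, adjusted p = 0.00020) and DMA by 1.76 (SE 0.30, adjusted p = 0.00012), and these 3 calls held in the other scalings tried. CIITA, at 2.75, 1.45 and 1.28 in SCF4, was not called. CTSS was not called either, at 0.03 (SE 0.21, adjusted p = 0.97). Of 9 class I genes, 7 were called higher and none lower, a count of 5 to 6 in the other scalings.

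The rise was smaller in line 2. In SCF2 against CF2, 2 of 6 members were called higher and none lower, where 43.5% of genes were called, 25.2% higher and 18.3% lower (58.0% of the called genes were higher, and 48.0% in edgeR). They were CD74, by 0.72 (SE 0.14, adjusted p = 0.00033), and MARCO, by 0.69 (SE 0.24, adjusted p = 0.030). Neither was called under quantile normalization, at 0.25 and 0.14, and MARCO was lost without any 1 of SCF2 replicates 2 and 3 and CF2 replicates 1 and 2, at 0.52 to 0.68. The change of CD74 from CF to SCF was larger in line 4 than in line 2 by 1.49 (SE 0.20, adjusted p = 1.1e-05), where 36.2% of genes were called for that difference, 17.6% higher and 18.6% lower. For BLB2 that difference was 2.25 (SE 0.85, adjusted p = 0.047), and the call was lost in 14 of 21 alternatives, with adjusted p from 0.0018 to 0.25 over them. For the change from CEF to SCF, 46.6% of genes were called for the line difference, 25.8% higher and 20.8% lower (55.3% of the called genes were higher, and 73.3% in CPM), and CD74 differed by 2.91 (SE 0.20, adjusted p = 1.7e-09).

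**Figure D5:**
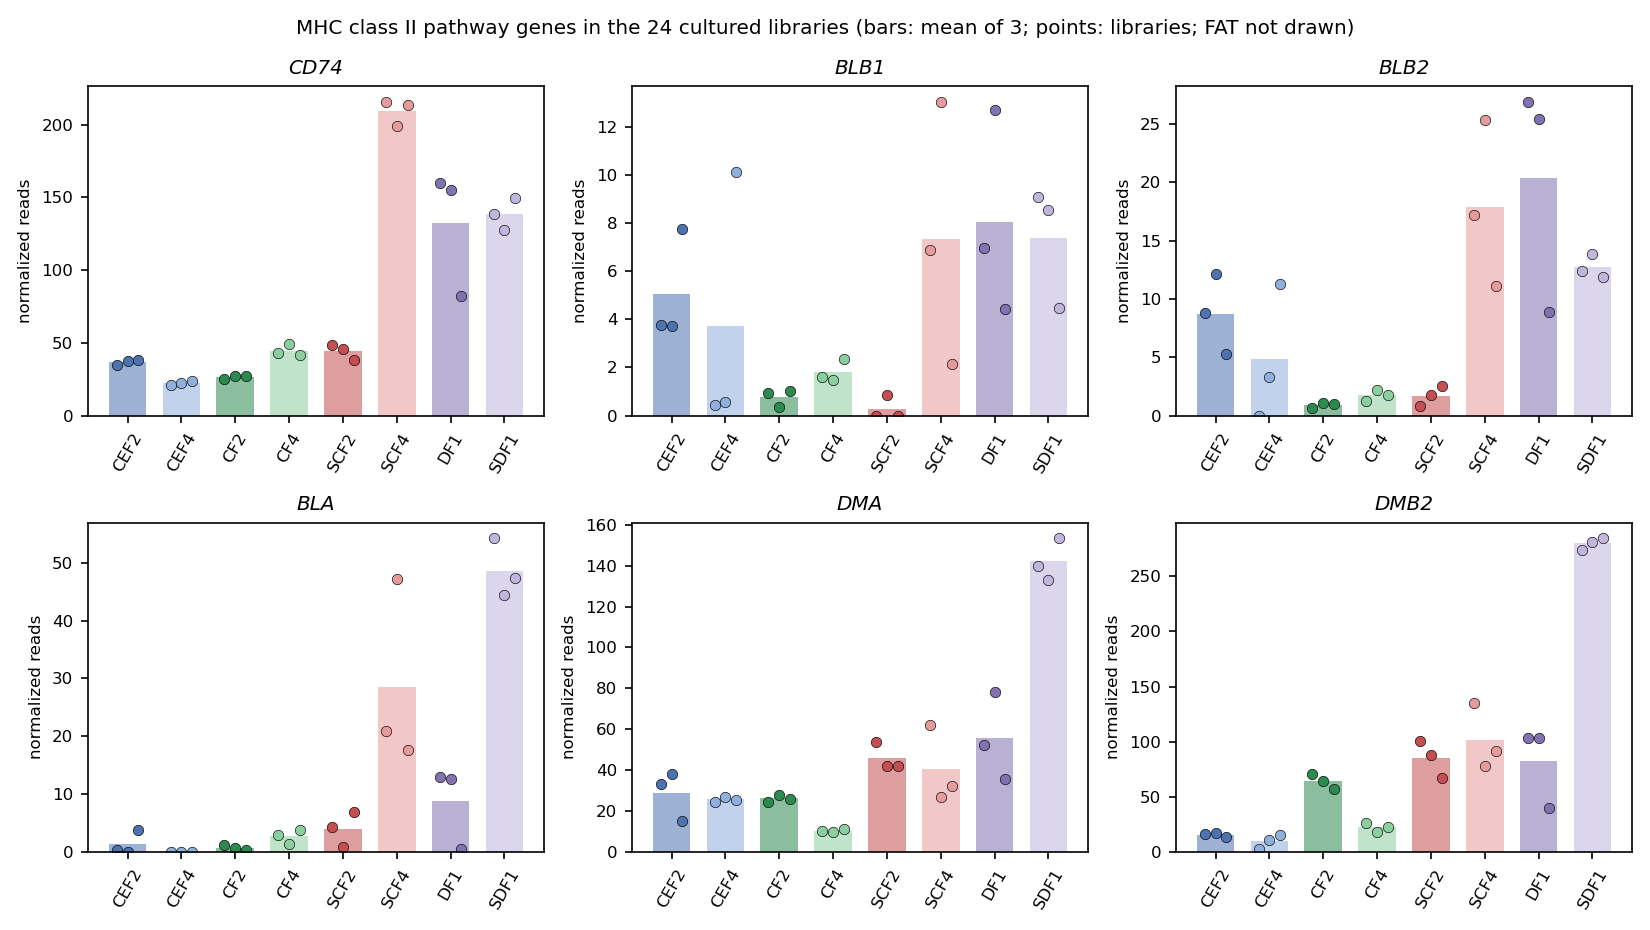
Normalized reads of CD74, BLB1, BLB2, BLA, DMA and DMB2 in the 24 cultured libraries; bars are means of 3, points are libraries, and each panel has its own linear axis from 0. CD74 peaks in SCF4, at 199 to 216, and BLA and DMB2 in SDF1, at 44.4 to 54.2 and 274 to 284.

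The balance of CD74 to the beta chains differed between FAT and the cultures. FAT held 0.723 reads of CD74 per read of BLB1 and BLB2 together, with 0.588, 1.001 and 0.689 in its replicates. The cultured groups held 2.68 (CEF2) to 23.3 (SCF2) reads of CD74 per beta-chain read, with 9.10 in SCF4, 4.65 in DF1 and 6.89 in SDF1. The upper end rests on few reads, as SCF2 held 2 reads of BLB1 and 10 of BLB2, and CF2 7 and 8. In CEF4 replicate 1 the ratio was 47, with 1 read of BLB1 and none of BLB2. Of the 24 cultured libraries, the lowest was CEF4 replicate 3 at 1.11, above every FAT library. BLB2 had 1.21 to 1.26 reads per BLB1 read in the FAT libraries, and over the cultured groups with more than 2 reads of BLB1 the ratio ran from 0.941 in CF4 to 2.58 in SCF4, on either side of FAT. Reads per gene also depend on transcript length, so only the comparison between samples can be read from these ratios.

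DF1 and SDF1 shared high CD74. CD74 stood at 160, 155 and 82.4 in DF1 and at 139, 128 and 150 in SDF1, and BLB2 at 26.9, 25.4 and 8.85 and at 12.4, 13.9 and 11.9. By limma none of the 6 members tested was called between SDF1 and DF1, where 31.6% of 11459 genes were called, 18.8% higher and 12.8% lower (59.5% of them higher, and 47.2% under quantile normalization). PTPRC alone reached an unadjusted p under 0.05 (0.033), with a difference of -1.33 (SE 0.48, 95% interval -2.51 to -0.15). The CD74 difference was 0.12, with a 95% interval from -0.57 to 0.82. DF1 replicate 3 stood apart, with 0.553 of BLA against 12.96 and 12.7 in its partners. Without that library BLB2 was called lower in SDF1, at -0.99, where 73.4% of all genes were called. Without 1 of the SDF1 libraries 11.8% to 12% of all genes were called, and 21.6% and 26% without DF1 replicate 1 or 2.

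Of 15 other class II pathway genes, 3 were called higher in SDF1 than in DF1 and 3 lower, beside 18.8% and 12.8% of all genes. Their median log2 difference was -0.10, beside 0.09 over all genes. DMA was higher in SDF1 than in DF1 by 1.41 (SE 0.29, adjusted p = 0.017) and DMB2 by 1.87 (SE 0.38, adjusted p = 0.017). BLA stood at 54.2, 44.4 and 47.3 in SDF1, and its difference of 2.89 (SE 0.90, adjusted p = 0.057) was not called. Of 9 class I genes, 7 were called higher in SDF1 and none lower. B2M stood at 2465, 2493 and 2488 in SDF1 and at 701, 742 and 1565 in DF1.

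The authors' deposited table of primary against suspension cells covers 5 of the 10 genes. Its direction was read from the values here, and signs are given as suspension minus primary. In line 2, the authors' deposited table gives log2 changes of -3.67 for C1QA, -4.40 for PTPRC, -5.46 for SPI1, 1.47 for MARCO and 0.23 for CD74 (adjusted p = 0.30). In line 4, the authors' deposited table gives -5.07 for PTPRC, -3.99 for SPI1, 6.62 for MARCO and 3.27 for CD74 (adjusted p = 2.2e-58), and -0.51 for C1QA (adjusted p = 0.74), which had no read in either group of line 4 in the normalized table.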

How the data were processed

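Per the labels' protocols, RNA was prepared with the NuGEN Trio kit and sequenced as paired ends. Bowtie2, RSEM, DESeq2 and galGal6 are named, without settings, per the submitters' processing notes. The authors deposited a signal per gene symbol for all 27 libraries. Its file calls the unit TPM, but 100% of each library's values are whole multiples of 1 value within a tolerance of 0.01, so it was taken as whole reads, each library scaled by its own factor. The filter and pseudocount were kept on that scale. A deposited count table of Ensembl IDs without names was not used. The authors' deposited log2 changes and p-values were copied, not recomputed.

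limma 3.58.1 (trend, robust) was run in R 4.3.3 on log2(value + 1) of genes at 1 or more in at least 3 fitted libraries, 2-sided, with Benjamini-Hochberg adjustment over all genes. FAT and SDF1 comparisons used only the groups compared, all others the 6 CEF, CF and SCF groups. The SCF against CF comparisons and the line differences (line 4 minus line 2) were added after seeing the data. Folds against a group without a read are bounds at a floor of 3 reads over the group, which covers counting error only. Alternatives were a pseudocount of 0.1, no filter, a filter of 10, quantile normalization, edgeR 4.0.16 (quasi-likelihood, TMM) on recovered reads, CPM from those reads (added after seeing the data), other fitted groups, a replicate block and leaving out each library. In FAT against CF4 edgeR called 8808 genes and limma 8707. The methods were tested on simulated data. Members, the 13 lists and the named genes (all members, genes fixed per list, and the 5 genes most like the members) were chosen with earlier results of these data known. Some genes of the lists are not reported here. Python 3.11.15 with pandas 2.3.3 and matplotlib 3.10.9 was used for levels and figures. The series design calls the replicates biological.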

Additional observations from a re-analysis of the deposited data

Results flagged for a closer look

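For 5 members, limma's test of the difference between lines 4 and 2 in the change on going from CEF to SCF passed its threshold, as it did for 46.6% of all genes. The signed log2 change in SCF against CEF was compared as line 4 minus line 2. The difference was 2.91 for CD74 (SE 0.20, adjusted p = 1.7e-09) and 4.09 for BLB2 (SE 0.85, adjusted p = 0.00071). It was 3.502 for BLB1 (SE 0.90, adjusted p = 0.0037), 3.68 for MARCO (SE 0.35, adjusted p = 1.2e-07) and 1.24 for SPI1 (SE 0.38, adjusted p = 0.013). BLB1 and BLB2 fell in line 2 and rose in line 4, where the rise of BLB1 was not called. SPI1 fell in both lines, and less so in line 4. Neither SCF2 nor SCF4 held an SPI1 read, so its difference only restates the lower level in CEF4 than in CEF2. The SPI1 call was lost with a pseudocount of 0.1, under quantile normalization and in edgeR. CEF4 held no MARCO read, so the size of the MARCO difference is not fixed, and it ran from 1.69 to 7.88 over the alternatives. In the change from CF to SCF the line difference of MARCO was -0.22 and was not called. The change from attached to suspension line, where 36.2% of all genes were called, was larger in line 4 by 1.49 for CD74 and by 2.25 for BLB2, the latter lost in 14 of 21 alternatives.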

How the results depend on the processing

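The members that would have passed the filter without FAT kept their calls in FAT against CF4 and CEF4 in each alternative tried. The others, with BLB1 and BLB2 against CEF4 among them, needed FAT to pass, so their calls say nothing about stability. Leaving out a FAT library lowered the members called from 10 to 6, since genes without reads in the other group then failed the filter. Over left-out libraries the members called ranged from 6 to 10 in both FAT comparisons, 6 to 8 (CF2) and 5 to 8 (SCF2) beside CEF2, 4 to 5 (CF4) and 5 to 6 (SCF4) beside CEF4, from 3 to 6 in CEF4 against CEF2, from 0 to 1 in SDF1 against DF1, from 1 to 2 in SCF2 against CF2, from 2 to 4 in SCF4 against CF4 and from 1 to 4 in the line difference of SCF against CF. Over left-out libraries 57.8% to 78% of all genes were called in FAT against CF4 and 45.8% to 65.3% in FAT against CEF4. These shares were 67.9% to 69% (CF2) and 67.7% to 69.5% (SCF2) beside CEF2. Beside CEF4 they were 65.5% to 69.9% (CF4) and 65.4% to 68.1% (SCF4). With a filter of 10, members called were 5 in CF2 against CEF2, 4 in SCF2 against CEF2, 3 in CEF4 against CEF2 and 3 in the line difference of SCF against CEF, because fewer were tested. For CF2, SCF2 and CEF4 against CEF2, that filter gave 75.5%, 74.6% and 48.5% of all genes called. Quantile normalization gave 5 in CF2 against CEF2 (73.2% of all genes), 2 in CEF4 against CEF2 (46.8%) and 0 in SCF2 against CF2. A pseudocount of 0.1 gave 3 in CEF4 against CEF2, where 42.1% of all genes were called. SDF1 against DF1 gave 1 with all 9 groups or with CF2 and CF4 in the fit. SCF2 against CF2 gave 1 with a pseudocount of 0.1, edgeR or all 9 groups, as did the line difference of SCF against CF, also without a filter. SCF4 against CF4 gave 4 with only those groups. The causes of these moves were not tested where none is named.

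Signs turned under quantile normalization for CD74 (1.58), CSF1R (1.45), BLB1 (0.68) and BLB2 (0.22) in CF2 against CEF2, for BLB1 (0.90), BLB2 (0.71) and CSF1R (1.51) in CF4 against CEF4, for BLB2 (0.51) and CSF1R (1.11) in SCF2 against CEF2, for CSF1R (0.82) in SCF4 against CEF4, for BLB1 (0.27) and CSF1R (0.063) in CEF4 against CEF2, for CD74 (-0.11) and MARCO (-0.17) in SDF1 against DF1, for CSF1R (-0.34) and PTPRC (-0.19) in SCF2 against CF2, and in the line differences for CSF1R (-0.29) and MARCO (0.034). In CF4 against CEF4 signs also turned with a pseudocount of 0.1 for BLB1 (0.28) and BLB2 (0.21), in CPM for BLB1 (0.25) and CSF1R (0.44), and over left-out libraries for BLB1 (-0.58 to 0.89), BLB2 (-1.42 to 0.39) and CSF1R (-0.35 to 0.15). Left-out libraries also turned BLB1 (-0.37 to 0.30) and CD74 (-0.18 to 0.29) in SDF1 against DF1, CSF1R (-0.23 to 0.38) and PTPRC (-0.22 to 0.63) in SCF2 against CF2, and PTPRC (-0.16 to 0.82) in the line difference of SCF against CEF. The cause was not tested.

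Replicate numbers did not pair the libraries, as residual correlations of equal numbers lay between -0.42 and 0.19. With the replicate block 10, 10, 8, 4, 7, 5, 5 and 0 members were called in the 8 planned comparisons, as without it.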
